A study of Mus musculus with 6 samples.

Results

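The matrix metalloproteinases, the ADAMs and the ADAMTS proteases were examined in bulk RNA-seq of CD11b+ cells purified from subcutaneous tumors of mice with and without systemic reduction of MCT2. Members were taken by symbol, as every gene of the count table whose name begins with Adam, Adamts or Mmp followed by a digit. This gave 77 of 25701 genes, with 34 Adam, 19 Adamts and 24 Mmp genes. One of the 24, *Mmp24os1*, is a gene on the strand opposite to *Mmp24* and is no protease.

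All 6 mice were C57BL/6 males of the genotype MCT2loxP/loxP; Cre+, in which a systemic inducible Cre (mCre-Tg) can delete the gene encoding MCT2. The 3 MCT2 KO mice received tamoxifen on consecutive days at an age of 8 weeks, and the 3 MCT2 CO mice, of the same genotype, received vehicle. Tumor cells of the TC1 line, a mouse lung epithelial tumor line, were injected into the flank 2 days later, and tumors were collected at 24 days. No tamoxifen-treated mice without Cre were included, so tamoxifen and loss of MCT2 cannot be told apart, and since deletion was systemic, changes within CD11b+ cells and changes around them cannot be told apart either. The paper reports larger tumors in MCT2 KO at collection, so tumor size and group cannot be told apart. The sample records name lung and purified macrophages, whereas the methods describe flank tumors digested with collagenase and magnetic selection for CD11b, an integrin on the surface of macrophages, monocytes and neutrophils. Total counts were between 24863611 and 31713704 per mouse.

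These proteases are zinc enzymes that work outside the cell or at its surface. Matrix metalloproteinases cleave collagens, elastin and other matrix proteins, ADAMs are mostly membrane enzymes that shed the outer part of other membrane proteins, and ADAMTS enzymes are secreted and process procollagens and matrix proteoglycans. Most are made as inactive precursors, and their mRNA levels do not give their activity. In tumors their sources include leukocytes and stromal cells, so the members were divided by where each is mainly known to be made. These were 6 myeloid-made genes, 29 stroma-made genes, 6 broadly made genes and 36 others, among them the many ADAMs of the testis. No class was set apart for tumor cells. The division was made by hand with earlier results of these data known, so differences between the classes are a description.

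The cell type named in the records was checked against markers of macrophages and of other cells that the selection could carry. All 10 macrophage markers were measured and passed the filter on low counts, and their summed level ran from 5532 to 7411 CPM (counts scaled to library size) in MCT2 CO and from 6575 to 10570 in MCT2 KO. The 10 fibroblast markers summed to between 2541 and 4145 CPM in MCT2 CO and to between 2134 and 2296 in MCT2 KO, so the groups did not overlap, and MCT2 CO replicate 3 was the highest. The 7 epithelial markers, of which 2 passed the filter, summed to 13.9 to 20.9 CPM in MCT2 CO. In MCT2 KO they summed to 18.5 to 33.5 CPM, with overlap. Of these markers, the keratins *Krt8*, *Krt18*, *Krt19*, *Krt5* and *Krt14* were at or near 0 in every mouse. The paper states that telling TC1 cells from host stromal cells would need further analyses. The fibroblast markers therefore cannot be assigned to host cells alone. MCT2 KO replicate 2 had the lowest sum of B cell markers, 27.7 CPM against 84.6 to 116 in the other 5 mice, and the lowest sum of dendritic cell markers, 24.4 CPM against 41.5 to 59.0. The gene encoding MCT2, *Slc16a7*, had 16.0, 11.04 and 11.2 CPM in MCT2 CO replicates 1 to 3 and 8.22, 4.97 and 5.34 CPM in MCT2 KO replicates 1 to 3, a log2 difference of -1.05 (standard error, SE, 0.24; edgeR adjusted p = 0.370). All of these are levels of bulk RNA, in which fewer cells of a type and less RNA per cell cannot be told apart.

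Of the 77 members, 45 passed the filter on low counts and were tested. The other 32 had at most 75 counts over all 6 mice, and 12 of them had 0. Of these 12, *Adam1a*, *Adam1b* and *Adam4*, have all of their exons inside the span of another listed gene. The gene lengths given with the counts are whole gene spans, so reads appear to have been counted over whole spans. A member that overlaps another gene can then lose the reads of the overlap, and for such members the printed level is that of the reads left.

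Most of the protease mRNA came from a few genes. Of the summed CPM of all members, the leading 3 held 48.1%, the leading 5 held 64.7% and the leading 10 held 86.3%. Levels of different genes were compared as CPM per kb of exon, and where reads of introns were counted these levels include them. The highest level was that of *Mmp14*, a membrane-bound collagenase that also activates the precursor of MMP2, at 123 CPM per kb in MCT2 CO and 146 in MCT2 KO. *Adam9*, a membrane sheddase, followed with 85.7 and 94.4 CPM per kb. The collagenase gene *Mmp13* had 54.5 CPM per kb in MCT2 CO and 87.2 in MCT2 KO, *Adamts1*, whose enzyme cleaves the proteoglycans aggrecan and versican, had 49.3 and 47.5, and *Adam10* had 47.3 and 49.3. In MCT2 KO *Adam8*, a sheddase of leukocytes, stood at 50.2 CPM per kb, beside *Adam10* and *Adamts1*, and in MCT2 CO it stood below both at 26.4.

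**Figure D1:**
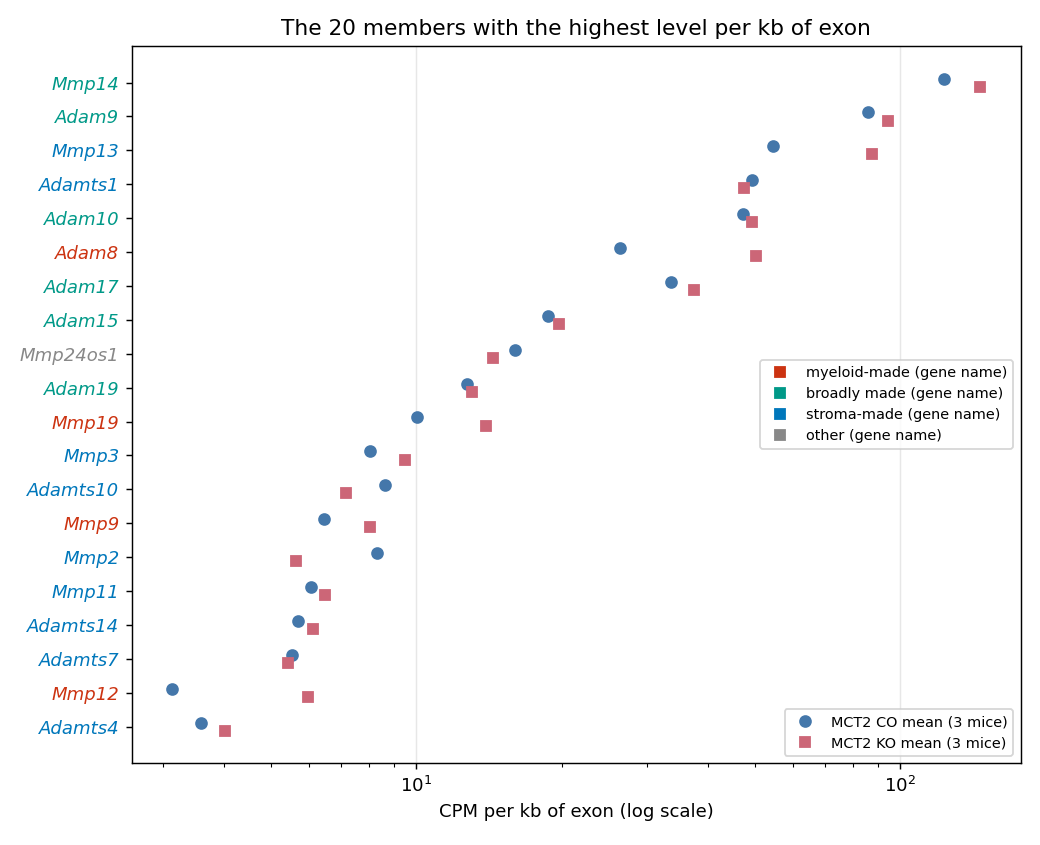
Level per kb of exon (CPM per kb, log scale) of the 20 members with the highest level, as the mean of 3 MCT2 CO mice (circles) and 3 MCT2 KO mice (squares), with gene names colored by class. *Mmp14* is highest in both groups at 123 and 146 CPM per kb, and the gap between the groups is wide for *Adam8*, with 26.4 and 50.2 CPM per kb.

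MCT2 KO and MCT2 CO were compared with edgeR's quasi-likelihood test over 13485 genes, with Benjamini–Hochberg adjustment over all of them, and calls required an adjusted p no higher than 0.05 together with a log2 fold change of 0.58 or more in either direction. None of the 45 tested members was called, and the smallest adjusted p among them was 0.370. Over all genes tested 0.0% were called. At an unadjusted p under 0.05 there were 9 members, of which 7 were higher in MCT2 KO, beside 3.77% of all genes, and 2 were lower, beside 5.6% of all genes. The 3 MCT2 KO values lay wholly above the 3 MCT2 CO values in 8 members, beside 7.07% of all genes, and wholly below them in 1 member, beside 8.77% of all genes. The median log2 fold change of the 45 members was 0.06, and that of all genes tested was 0.000366. With 3 mice in each group an exact permutation test cannot give a two-sided p below 0.1. The edgeR and DESeq2 p-values can be lower because they also draw on the spread of other genes. All of them rest on these 6 mice only.

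DESeq2's Wald test, an alternative to edgeR, was applied with the same thresholds to every gene that had a count. It called 3 members, *Adam8*, *Mmp8* and *Mmp12*, all higher in MCT2 KO. Over all genes with an adjusted p it called 0.232% higher and 0.352% lower in MCT2 KO. *Mmp19* had a DESeq2 adjusted p of 0.0322, with a fold change below the threshold. All 4 belong to the myeloid-made class, and none of the 20 stroma-made genes tested was called by either tool.

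**Figure D2:**
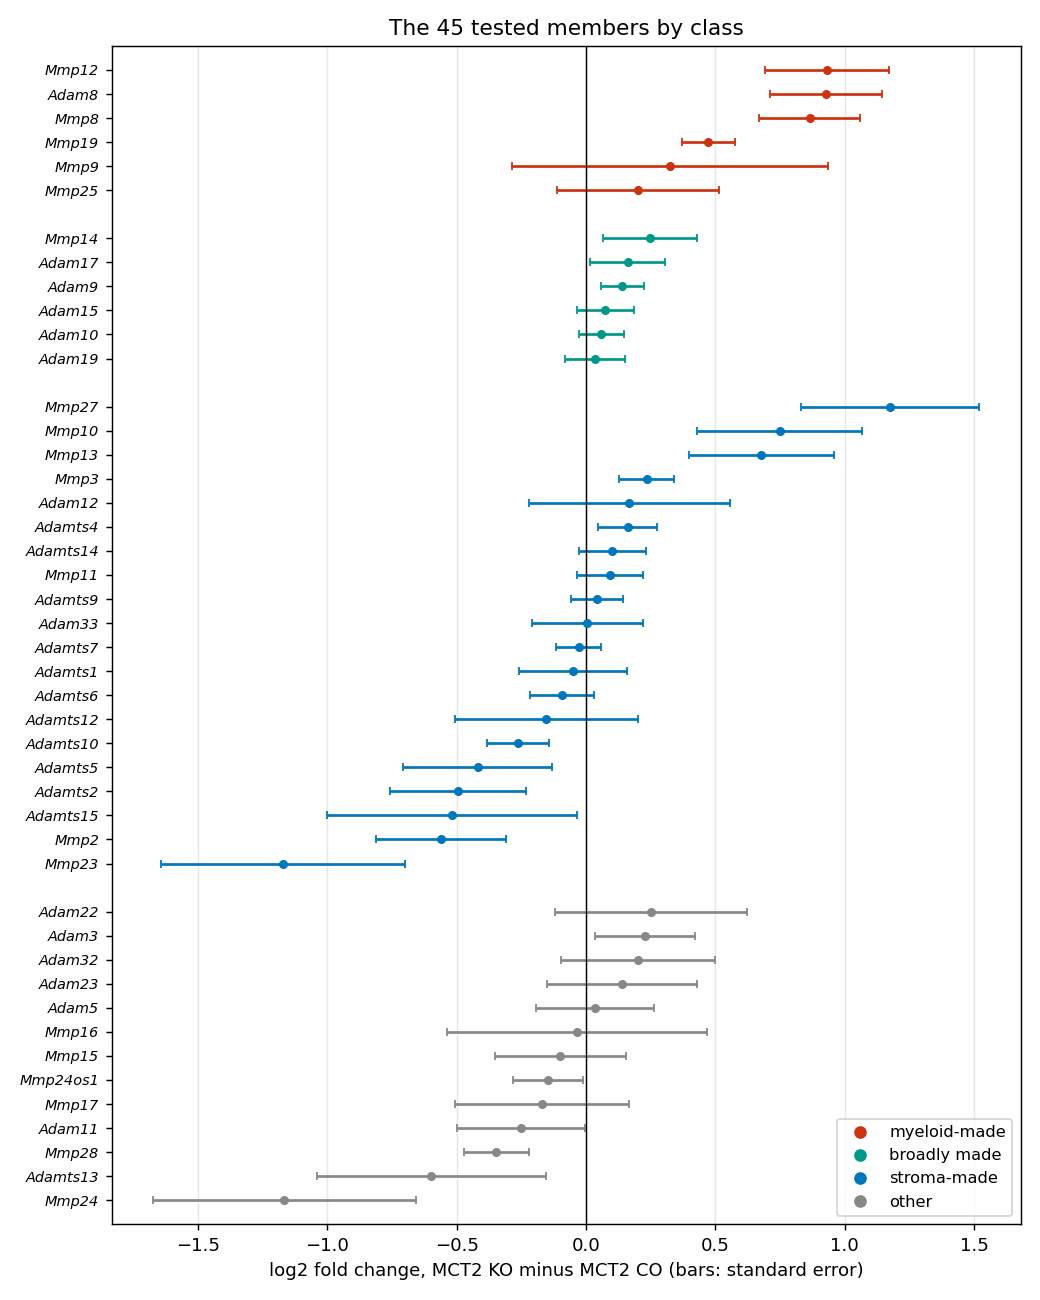
Log2 fold change (MCT2 KO minus MCT2 CO) of the 45 tested members, one row per gene, grouped by class and ordered within it, with bars for the standard error of edgeR's fit. All 6 myeloid-made genes lie above 0, with a median of 0.67, and the stroma-made genes lie on both sides of 0, 10 above and 10 below.

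The 6 myeloid-made genes all had a log2 fold change above 0, with a median of 0.67. Their summed level was 246, 230 and 189 CPM in MCT2 CO and 372, 412 and 347 CPM in MCT2 KO, so the lowest MCT2 KO mouse was above the highest MCT2 CO mouse. *Adam8* made up the larger part of this sum in every mouse except MCT2 CO replicate 3. Of the 6 genes, 4 were higher at an unadjusted p under 0.05 in edgeR's test, beside 3.77% of all genes, and the same 4 had no overlap, beside 7.07% of all genes. Markers of macrophages and neutrophils lay mostly on the same side, and those of dendritic cells did not. All 10 macrophage markers had a log2 fold change above 0, with a median of 0.26, but all 10 overlapped between the groups. Of these, 1, *Lyz2*, had an unadjusted edgeR p under 0.05. Of the 7 tested neutrophil markers 6 were above 0, with a median of 1.87. The 7 dendritic cell markers had 2 above 0 and 5 below, with a median of -0.33. The part of macrophage or neutrophil RNA in the myeloid-made class was not tested.

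*Adam8* encodes a leukocyte ADAM that sheds adhesion receptors such as L-selectin from the cell surface (ENSMUSG00000025473, minus strand of chromosome 7 of GRCm38, 139978932 to 139992562). It had 153, 136 and 78.1 CPM in MCT2 CO replicates 1 to 3, and 227, 239 and 232 CPM in MCT2 KO replicates 1 to 3. The MCT2 KO mice lay close together and above all MCT2 CO mice, among which replicate 3 was low. The log2 fold change was 0.93 (SE 0.22, edgeR unadjusted p = 0.00274, adjusted p = 0.374, DESeq2 adjusted p = 0.00692). Without MCT2 CO replicate 3 it was 0.69, and with each mouse left out in turn it stayed between 0.69 and 1.12.

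*Mmp12* encodes macrophage elastase, the metalloproteinase by which macrophages degrade elastin (ENSMUSG00000049723, plus strand of chromosome 9, 7344381 to 7369499). Its levels were 21.1, 27.7 and 19.2 CPM in MCT2 CO and 44.5, 56.2 and 28.8 CPM in MCT2 KO. The groups did not overlap, but MCT2 KO replicate 3 was only just above MCT2 CO replicate 2. The log2 fold change was 0.93 (SE 0.24, edgeR adjusted p = 0.396, DESeq2 adjusted p = 0.0203). Of its exons, 4.63% lie inside the span of *Mmp1b*.

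*Mmp8* encodes the collagenase of neutrophil granules (ENSMUSG00000005800, plus strand of chromosome 9, 7558456 to 7568485). It was measured at a low level, with 106, 66 and 89 counts in MCT2 CO and 136, 212 and 123 in MCT2 KO, which came to 3.54, 2.54 and 3.35 CPM and to 5.70, 6.51 and 4.94 CPM. All MCT2 KO mice were above all MCT2 CO mice, at a log2 fold change of 0.86 (SE 0.20, edgeR adjusted p = 0.370, DESeq2 adjusted p = 0.0320). Neutrophil markers were measured beside it. Of the 10, 7 were tested and 5 of these, *S100a8*, *S100a9*, *Ngp*, *Ltf* and *Retnlg*, were higher in MCT2 KO without overlap, beside 7.07% of all genes. Their log2 fold changes ran from 1.53 for *S100a8* to 4.82 for *Ngp*. DESeq2 called 4 of them, all but *Ltf*, beside 0.232% of all genes called higher in MCT2 KO. The summed level of all 10, most of it from *Csf3r*, ran from 80.0 to 101 CPM in MCT2 CO and from 63.1 to 181 in MCT2 KO. The defining marker *Ly6g* was near 0 in every mouse, at no more than 0.123 CPM. Within MCT2 KO the order of the mice differed, since *Ngp* had 15.3, 3.62 and 1.17 CPM in replicates 1 to 3 and *Mmp8* was highest in replicate 2. The part of neutrophils in the level of *Mmp8* was not tested.

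*Mmp19* encodes a metalloproteinase that cleaves basement membrane proteins (ENSMUSG00000025355, plus strand of chromosome 10, 128790910 to 128800824). It had 39.2, 35.7 and 31.6 CPM in MCT2 CO and 47.6, 52.5 and 47.6 CPM in MCT2 KO, without overlap. This was a log2 fold change of 0.47 (SE 0.10, edgeR unadjusted p = 0.0017, adjusted p = 0.370), the smallest unadjusted p of all members. Of its exons, 22.3% lie inside the span of *Tmem198b*. In each of the 6 fits that left out a mouse, *Adam8*, *Mmp8*, *Mmp12* and *Mmp19* kept an unadjusted edgeR p under 0.05, the highest being 0.0228 for *Mmp12*.

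The other 2 myeloid-made genes overlapped between the groups. *Mmp9*, the gene of a gelatinase stored in neutrophil granules and also made by macrophages, had 17.1, 7.65 and 43.6 CPM in MCT2 CO and 23.4, 47.3 and 14.7 CPM in MCT2 KO. Its high values were in MCT2 CO replicate 3 and MCT2 KO replicate 2, and the SE of its log2 fold change, 0.61, exceeded the change of 0.33. With each mouse left out in turn that value ran from -0.26 to 1.20, so its direction rested on single mice. *Mmp25*, which encodes a membrane-anchored enzyme of leukocytes, had 12.5, 19.5 and 13.1 CPM in MCT2 CO and 23.7, 9.73 and 18.6 CPM in MCT2 KO. MCT2 KO replicate 2, the highest for *Mmp9*, was the lowest for *Mmp25*, and the log2 fold change of *Mmp25* was 0.20 (SE 0.31).

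**Figure D3:**
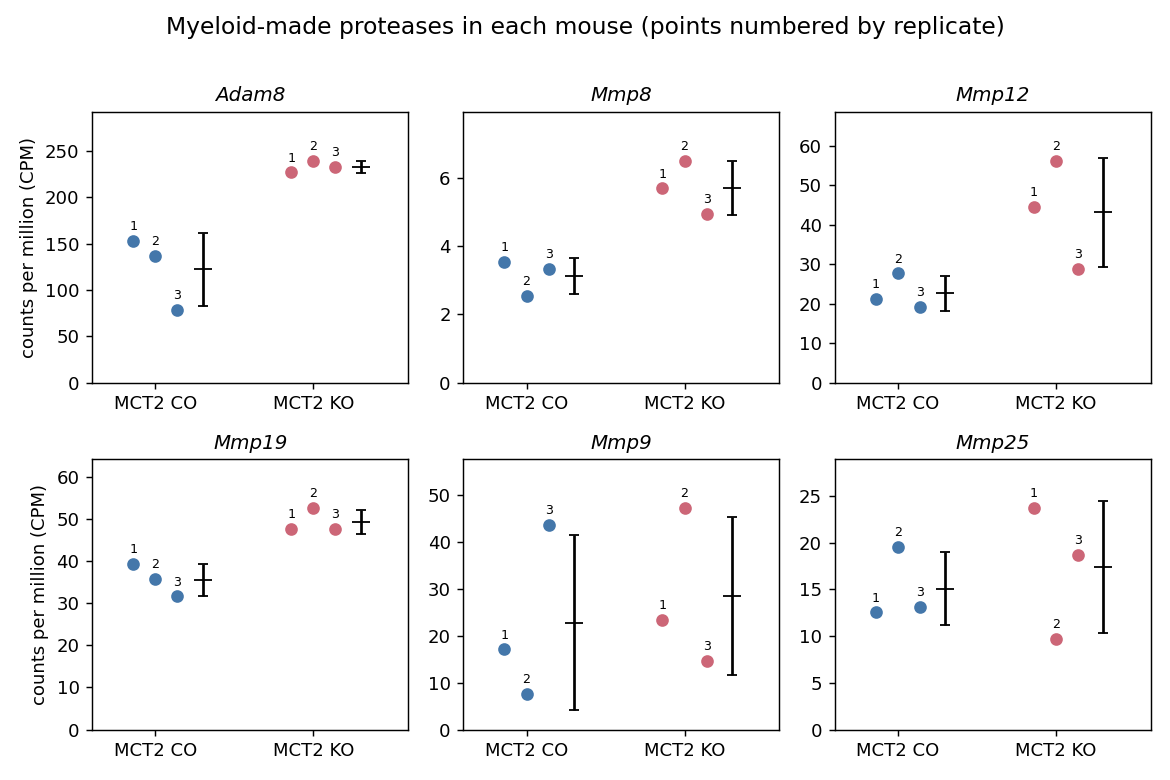
CPM of the 6 myeloid-made genes in each mouse (points numbered by replicate, bars for the mean and SD of 3 mice). For *Adam8*, *Mmp8*, *Mmp12* and *Mmp19* every MCT2 KO mouse is above every MCT2 CO mouse, and for *Mmp9* a single mouse of each group, with 43.6 and 47.3 CPM, stands above the rest.

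*Mmp8* and *Mmp12* are neighbours. On chromosome 9 of GRCm38, 10 members lie between 7272514 and 7699585, a stretch of 427 kb, in the order *Mmp13*, *Mmp12*, *Mmp1b*, *Mmp3*, *Mmp1a*, *Mmp10*, *Mmp8*, *Mmp27*, *Mmp20* and *Mmp7*. The grouping by position was made after the values had been seen and is a description. *Mmp1a*, *Mmp1b*, *Mmp7* and *Mmp20* were not tested, with at most 12 counts over the 6 mice. All 6 tested genes of the cluster had a log2 fold change above 0, with a median of 0.81, beside a median of 0.03 in the 39 tested members outside it. The 3 MCT2 KO values lay wholly above the 3 MCT2 CO values in 5 of the 6, beside 7.07% of all genes.

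The collagenase gene *Mmp13* had 170, 160 and 107 CPM in MCT2 CO and 272, 287 and 140 CPM in MCT2 KO (ENSMUSG00000050578, chromosome 9, 7272514 to 7283331). MCT2 KO replicate 3 lay below MCT2 CO replicates 1 and 2, so the groups overlapped, and the log2 fold change was 0.68 (SE 0.28, edgeR unadjusted p = 0.0418, adjusted p = 0.525). Without MCT2 CO replicate 3 the value was 0.50, and the unadjusted p was 0.128. *Mmp3*, the gene of the matrix enzyme stromelysin, which also activates procollagenases, had 13.5, 15.2 and 14.7 CPM in MCT2 CO and 17.3, 15.7 and 18.1 CPM in MCT2 KO, apart by a small step and with a log2 fold change of 0.23 (SE 0.11). *Mmp10*, a close relative of *Mmp3*, had 1.07, 0.81 and 0.98 CPM in MCT2 CO and 1.09, 1.47 and 2.25 CPM in MCT2 KO. The lowest MCT2 KO mouse and the highest MCT2 CO mouse nearly coincided, with 26 and 32 counts in libraries of unequal depth, and the log2 fold change was 0.75 (SE 0.32), or 0.44 with the high MCT2 KO replicate 3 left out. *Mmp27*, whose role is little known, was barely detected, with 13, 6 and 9 counts in MCT2 CO and 18, 29 and 16 in MCT2 KO. Its log2 fold change of 1.18 (SE 0.34, edgeR unadjusted p = 0.00918, adjusted p = 0.429) was the highest among the tested members and rests on these few counts.

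**Figure D4:**
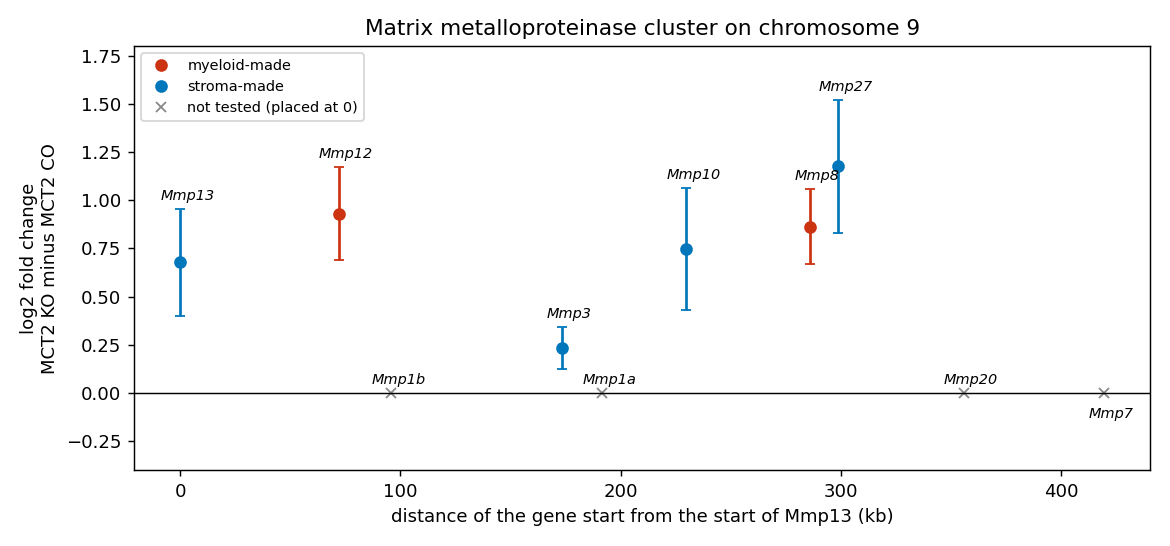
Log2 fold change (MCT2 KO minus MCT2 CO, bars for the standard error) of the members of the chromosome 9 cluster against the distance of each gene's start from that of *Mmp13* in kb. All 6 tested genes lie above 0, between 0.23 for *Mmp3* and 1.18 for *Mmp27*, and crosses at 0 mark the 4 genes that were not tested.

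Metalloproteinase genes are known to be induced through AP-1, a factor that binds TGANTCA, and many of them carry a TATA box. The bases from 120 before to 20 from the transcription start of the tested genes of the cluster are shown, from RefSeq on GRCm38.p6 and all on the plus strand, with TGANTCA and TATAAA in capitals. For *Mmp12*, which has 2 RefSeq starts, the downstream one is shown, which lies inside the gene span and whose window holds both strings.
Mmp13, chr9:7272394-7272533: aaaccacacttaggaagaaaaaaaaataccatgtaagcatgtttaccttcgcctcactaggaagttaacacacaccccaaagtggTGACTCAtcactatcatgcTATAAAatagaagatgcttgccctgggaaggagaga
Mmp12, chr9:7347254-7347393: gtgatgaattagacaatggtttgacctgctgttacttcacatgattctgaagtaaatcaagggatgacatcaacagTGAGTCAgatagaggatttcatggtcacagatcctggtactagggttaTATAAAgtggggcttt
Mmp3, chr9:7445702-7445841: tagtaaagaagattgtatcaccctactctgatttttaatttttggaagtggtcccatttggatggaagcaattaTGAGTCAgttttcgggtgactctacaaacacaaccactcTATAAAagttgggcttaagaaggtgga
Mmp10, chr9:7502222-7502361: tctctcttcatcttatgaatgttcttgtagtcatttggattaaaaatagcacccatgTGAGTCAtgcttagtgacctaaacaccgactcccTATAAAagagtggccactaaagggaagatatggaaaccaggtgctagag
Mmp8, chr9:7558309-7558448: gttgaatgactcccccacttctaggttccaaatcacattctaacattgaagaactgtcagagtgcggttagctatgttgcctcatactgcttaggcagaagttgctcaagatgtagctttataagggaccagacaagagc
Mmp27, chr9:7571276-7571415: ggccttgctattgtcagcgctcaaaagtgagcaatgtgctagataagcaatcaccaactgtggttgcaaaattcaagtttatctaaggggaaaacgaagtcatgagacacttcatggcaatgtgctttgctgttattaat

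TGANTCA, which reads the same on both strands, was found 35 bases before the start of *Mmp13*, 44 before that of *Mmp12*, 46 before that of *Mmp3* and 63 before that of *Mmp10*. TATAAA on the gene's strand followed in all 4, beginning 16, 7 and 29 bases before the start of *Mmp13*, *Mmp3* and *Mmp10* and 4 bases after that of *Mmp12*. Neither string was in the windows of *Mmp8* and *Mmp27* or in that of the upstream start of *Mmp12*. Windows of 250 bases before and 50 after the start were found for 46 members, and of the 10 genes of the cluster 8 had both strings in a window. Among all 32851 windows 7.81% held TGANTCA, 8.32% held TATAAA and 0.995% held both, and TATAAA on either strand was in 13.6%. Counted by gene, as the 8 of 10 are, 1.18% of 27025 genes held both in a window. No tested member outside the cluster, of the 20 with a window, held both. The window of *Adam8* held neither, and *Mmp19* and *Mmp9* had no window. These matches are a description of the windows, and no relation of the strings to the differences between MCT2 KO and MCT2 CO was tested.

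The stroma-made class held 29 genes, of which 20 were tested. There were 10 with a log2 fold change above 0 and 10 below, with a median of -0.01, and the class summed to 663, 706 and 774 CPM in MCT2 CO and to 750, 894 and 658 CPM in MCT2 KO, so the groups overlapped. At an unadjusted edgeR p under 0.05 there were 4 of the 20. *Mmp27*, *Mmp13* and *Mmp10* of the cluster were higher in MCT2 KO, beside 3.77% of all genes. *Mmp23* was lower, beside 5.6% of all genes.

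Several stroma-made genes had their highest value in MCT2 CO replicate 3, the mouse with the highest sum of fibroblast markers. *Mmp2*, the gene of the gelatinase that fibroblasts secrete, had 22.2, 21.9 and 39.8 CPM in MCT2 CO and 23.4, 16.2 and 17.3 CPM in MCT2 KO. Its log2 fold change was -0.56 (SE 0.25, edgeR adjusted p = 0.545), and -0.22 without MCT2 CO replicate 3. *Mmp23*, the gene of a membrane-bound metalloproteinase, had 1.20, 2.15 and 4.40 CPM in MCT2 CO and 1.38, 1.23 and 0.80 CPM in MCT2 KO, with a log2 fold change of -1.17 (SE 0.47, edgeR unadjusted p = 0.0376) that was -0.55 without that mouse. *Adamts2*, whose enzyme removes the N-terminal propeptide of procollagens, had 14.7, 18.3 and 29.7 CPM in MCT2 CO and 14.2, 18.0 and 12.1 CPM in MCT2 KO, and *Adamts5*, the gene of an aggrecan-degrading enzyme, had 13.2, 12.3 and 23.7 CPM and 8.85, 15.5 and 12.3 CPM. Their log2 fold changes of -0.50 and -0.42 were -0.15 and -0.06 without MCT2 CO replicate 3. MCT2 CO replicates 1 and 2 lay within or just above the range of MCT2 KO for *Mmp2*, *Adamts2* and *Adamts5*, and replicate 2 lay clearly above it for *Mmp23*. *Adamts10*, whose enzyme acts on fibrillin microfibrils, had 61.8, 68.2 and 83.0 CPM in MCT2 CO and 63.0, 59.1 and 55.3 CPM in MCT2 KO, with a log2 fold change of -0.26 (SE 0.12) that was -0.14 without that mouse. The part of fibroblast RNA in these values was not tested, nor was the part of RNA from TC1 cells.

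The other stroma-made genes did not separate. *Adamts1* had 216, 249 and 319 CPM in MCT2 CO and 195, 326 and 234 CPM in MCT2 KO, with a log2 fold change of -0.05 (SE 0.21), and its highest values were in MCT2 CO replicate 3 and MCT2 KO replicate 2, as for *Mmp9*. *Adamts14*, the gene of a further procollagen N-proteinase, had 31.7, 33.3 and 23.9 CPM in MCT2 CO and 30.3, 32.1 and 33.1 CPM in MCT2 KO, so that MCT2 CO replicate 3 was lowest here. *Adamts7* had 33.2, 36.8 and 34.2 CPM in MCT2 CO and 36.0, 32.4 and 33.8 CPM in MCT2 KO (log2 fold change -0.03, SE 0.09). *Adamts9* had 26.6, 27.2 and 28.0 CPM and 25.4, 27.5 and 31.3 CPM (log2 fold change 0.04, SE 0.10). Both kept a narrow range in which the groups overlapped. *Adamts4*, *Adamts6* and *Mmp11* lay between 15.2 and 21.8 CPM in every mouse, and *Adam12*, *Adam33* and *Adamts12* between 1.41 and 4.59 CPM, each with overlap. *Adamts15* was at 0.184 to 0.603 CPM. The 9 stroma-made genes that were not tested, 7 Adamts genes with *Mmp1a* and *Mmp1b*, had between 4 and 75 counts over all mice.

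**Figure D5:**
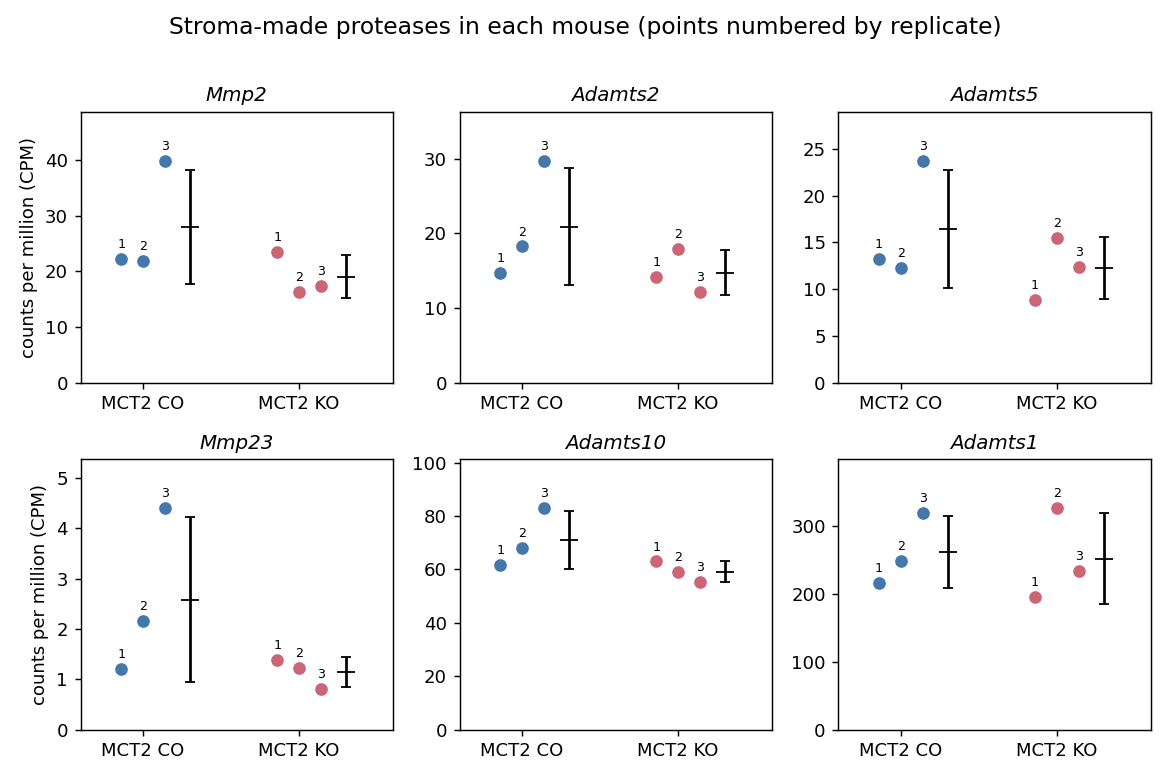
CPM of 6 stroma-made genes in each mouse (points numbered by replicate, bars for the mean and SD of 3 mice). MCT2 CO replicate 3 is the highest mouse for *Mmp2*, *Adamts2*, *Adamts5*, *Mmp23* and *Adamts10*, for example with 39.8 CPM for *Mmp2*, and for *Adamts1* MCT2 KO replicate 2 is as high, with 326 against 319 CPM.

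The broadly made class holds the main sheddases and *Mmp14*. All 6 genes were tested, all had log2 fold changes above 0 (median 0.11, range 0.03 to 0.25), and none had an unadjusted edgeR p under 0.05. Only *Adam9* did not overlap, with MCT2 KO higher, beside 7.07% of all genes. *Mmp14* had 858, 746 and 597 CPM in MCT2 CO and 1059, 706 and 847 CPM in MCT2 KO, with a log2 fold change of 0.25 (SE 0.18). The groups overlapped, and MCT2 KO replicate 2 was below 2 of the MCT2 CO mice.

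*Adam17*, the gene of the enzyme that releases tumor necrosis factor from the membrane, had 277, 241 and 203 CPM in MCT2 CO and 304, 229 and 272 CPM in MCT2 KO, and a log2 fold change of 0.16 (SE 0.14). *Adam10*, the gene of the enzyme that makes the first activating cut in Notch receptors, had 253, 220 and 225 CPM in MCT2 CO and 243, 240 and 243 CPM in MCT2 KO, a log2 fold change of 0.06 (SE 0.09). *Adam9* was a little higher in every MCT2 KO mouse, with 370, 347 and 340 CPM in MCT2 CO and 397, 394 and 375 CPM in MCT2 KO, and a log2 fold change of 0.14 (SE 0.08, edgeR adjusted p = 0.638). *Adam15* had 108, 117 and 121 CPM in MCT2 CO and 139, 119 and 106 CPM in MCT2 KO. *Adam19* had 80.9, 89.7 and 101 CPM in MCT2 CO and 105, 88.3 and 85.2 CPM in MCT2 KO, and both overlapped.

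Of the 36 other members 13 were tested, 5 with a log2 fold change above 0 and 8 below. *Mmp28*, the gene of epilysin, a metalloproteinase that macrophages and epithelial cells can make, was the only tested member whose MCT2 KO values all lay below the MCT2 CO values. It had 8.51, 8.15 and 9.07 CPM in MCT2 CO and 7.002, 6.57 and 6.67 CPM in MCT2 KO (ENSMUSG00000020682, minus strand of chromosome 11, 83440768 to 83463071). The spread within each group was small, and the log2 fold change was -0.35 (SE 0.13, edgeR unadjusted p = 0.0245, adjusted p = 0.488). Part of its exon sequence lies inside the span of *1700020L24Rik*. *Mmp24*, the gene of a membrane-bound metalloproteinase, had 20, 14 and 26 counts in MCT2 CO and 3, 18 and 6 in MCT2 KO, with a log2 fold change of -1.17 (SE 0.51) and MCT2 KO replicate 2 inside the range of MCT2 CO. Without MCT2 KO replicate 2 the value was -1.95 (edgeR unadjusted p = 0.00637), and with any single mouse left out it lay between -1.95 and -0.82. Its opposite-strand neighbour *Mmp24os1*, with which it shares exon sequence, had 22.5, 24.5 and 30.4 CPM in MCT2 CO and 22.3, 25.9 and 21.7 CPM in MCT2 KO. Reads of the shared stretch may be missing from either gene or from both. *Adam11*, *Adam22* and *Adam23*, whose proteins lack protease activity, lay between 1.46 and 5.24 CPM in every mouse. *Adamts13*, whose enzyme cleaves von Willebrand factor, had a log2 fold change of -0.60 (SE 0.44) at 0.201 to 0.534 CPM, and the membrane-type *Mmp15*, *Mmp16* and *Mmp17* had -0.10 (SE 0.25), -0.03 (SE 0.50) and -0.17 (SE 0.34), all with overlap.

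Inhibitors, activators, substrates and relatives of the members were then examined. Of 6 inhibitors only 2 were tested. *Timp2* had 285, 272 and 323 CPM in MCT2 CO and 313, 349 and 279 CPM in MCT2 KO, with a log2 fold change of 0.10 (SE 0.11), and *Reck*, a membrane-anchored inhibitor, had 12.1, 12.7 and 12.1 CPM and 10.2, 14.9 and 10.6 CPM, with a log2 fold change of -0.05 (SE 0.16). Both overlapped between the groups. *Timp1*, *Timp3* and *Timp4* had 0 counts with all of their exons inside the span of another listed gene, so their levels could not be read from these counts, and *A2m* was too low to test.

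Of 17 activators and carriers 15 were tested and none was called. At an unadjusted edgeR p under 0.05 there was 1, *Rhbdf1*, lower in MCT2 KO, beside 5.6% of all genes. *Rhbdf1* is the gene of an inactive rhomboid that carries ADAM17 to the surface. It had 67.5, 83.6 and 74.3 CPM in MCT2 CO and 60.1, 64.7 and 60.7 CPM in MCT2 KO, without overlap and with a log2 fold change of -0.28 (SE 0.10, edgeR adjusted p = 0.466). Its relative *Rhbdf2*, the form that leukocytes mainly use, had 104, 87.8 and 71.8 CPM in MCT2 CO and 131, 66.6 and 104 CPM in MCT2 KO, with overlap. *Furin*, whose enzyme removes the propeptide of ADAMs and membrane-type metalloproteinases, had a log2 fold change of 0.14 (SE 0.16), and *Plat* and *Plaur* of the plasminogen system had values of 0.15 (SE 0.11) and 0.17 (SE 0.13).

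Among 24 surface proteins that ADAMs shed, 23 were tested, 14 with a log2 fold change above 0 and 9 below, and none was called by edgeR. *Vcam1*, the gene of a vascular adhesion molecule that macrophages also make, had 150, 99.5 and 104 CPM in MCT2 CO and 210, 173 and 142 CPM in MCT2 KO, with a log2 fold change of 0.57 (SE 0.19, edgeR unadjusted p = 0.0167). *Notch1*, cut by ADAM10, had 207, 247 and 221 CPM in MCT2 CO and 185, 168 and 202 CPM in MCT2 KO, without overlap and with a log2 fold change of -0.28 (SE 0.11). The membrane chemokine gene *Cx3cl1* had a log2 fold change of -0.74 (SE 0.31), with 50.01 CPM in MCT2 CO replicate 3 and 15.8 to 26.2 in the other 5 mice, and the value was -0.27 without that replicate. *Fcer2a*, a B cell gene too low for the edgeR filter, was called lower by DESeq2 (adjusted p = 0.0221), at no more than 1.279 CPM in any mouse.

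Of 8 matrix substrates 7 were tested, 6 with a log2 fold change below 0. *Eln*, the elastin gene, had 3.24, 5.77 and 13.6 CPM in MCT2 CO and 2.52, 3.65 and 1.49 CPM in MCT2 KO, with a log2 fold change of -1.54 (SE 0.53, edgeR unadjusted p = 0.0199) that was -0.80 (unadjusted p = 0.0844) without MCT2 CO replicate 3. *Lama4*, a laminin gene, had 74.6, 91.8 and 118 CPM in MCT2 CO and 68.3, 73.8 and 67.2 CPM in MCT2 KO, without overlap and with a log2 fold change of -0.44 (SE 0.15), or -0.25 without that mouse. *Fn1*, the fibronectin gene, had 1376, 1560 and 2015 CPM in MCT2 CO and 1325, 1775 and 1561 CPM in MCT2 KO, with overlap. MCT2 CO replicate 3 was the highest mouse for all 3.

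Of 8 relatives outside the naming rule 7 were tested, 2 with a log2 fold change above 0 and 5 below. These are mainly ADAMTS-like genes, whose secreted proteins have no protease domain. *Adamtsl5*, which encodes a microfibril-associated protein, had 38.6, 44.3 and 40.9 CPM in MCT2 CO and 32.9, 28.8 and 35.1 CPM in MCT2 KO, without overlap and with a log2 fold change of -0.36 (SE 0.10, edgeR unadjusted p = 0.00863, adjusted p = 0.426). *Papln* had 1.501, 1.19 and 2.94 CPM in MCT2 CO and 0.84, 1.07 and 0.68 CPM in MCT2 KO, also without overlap, at a log2 fold change of -1.10 (SE 0.39) that was -0.63 without MCT2 CO replicate 3. *Adamtsl4* stood on the other side of 0, with a log2 fold change of 0.17 (SE 0.10) and overlap.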

How the data were processed

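Bulk RNA-seq was analysed for 3 MCT2 CO and 3 MCT2 KO mice. The authors state that the reads were aligned with STAR 2.7.11b to GRCm38, and they deposited unnormalized counts of reads per gene, made with featureCounts 2.1.1. The versions are those of the submitters' processing notes. Annotation, feature type and strand setting are not given in the sources used here. The gene lengths in the table are whole gene spans. Positions in the table match GENCODE M21 for 2.40% of genes and span lengths for 98.1%. For most genes the given positions thus differ from those on GRCm38, the build the authors name, and the reason was not tested. Positions were therefore looked up by Ensembl identifier in GENCODE M21 (GRCm38).

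Genes were kept by filterByExpr of edgeR 4.0.16 (minimum count 10, minimum total count 15), normalized by TMM and tested by the quasi-likelihood method in R 4.3.3, without covariates. CPM used the TMM library sizes, and CPM per kb the union of GENCODE exons. DESeq2 1.42.0, limma 3.58.1, other filters and normalizations, a replicate block and each mouse left out in turn were alternatives. All pairs of replicates differed beyond sampling noise.

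Members and gene lists were chosen with earlier results of these data known. Values in every mouse are given for the myeloid-made genes, the members with a mean of at least 20 CPM and the 10 with the smallest unadjusted p, and for the inhibitors and up to 3 genes of each other list with the smallest p. *Mmp3*, *Adamts2* and *Adamts5* and other genes named beyond this were chosen after their values were seen. Counting error matters mainly for members at a few CPM.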

Additional observations from a re-analysis of the deposited data

How the results depend on the processing

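No member was called by edgeR under any normalization, filter, replicate block or mouse left out, nor by limma-voom, while DESeq2 called 3 members, all 3 of them myeloid-made, whether run on the same filtered genes or on every gene with a count. Over all genes, 0 were called by edgeR, 79 and 83 by DESeq2 in these forms, 2 without the filter, 2 without MCT2 KO replicate 2, and 10 with both MCT2 CO replicate 3 and MCT2 KO replicate 2 left out, an alternative chosen after seeing the data. The members at an unadjusted p under 0.05, 9 in the edgeR test, numbered 5 to 11 with each mouse left out in turn (5 without MCT2 CO replicate 3), and 7 with both of those mice left out. *Mmp13*, *Mmp10*, *Mmp23* and *Mmp28* lost that p in at least one of these fits, and *Mmp27* did not. The number of all genes at that p also moved between the fits. It was 1264 in the edgeR test, 787 without MCT2 CO replicate 3 and 1576 without MCT2 KO replicate 2. With both of those mice left out it was 1245.

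With single mice left out, log2 fold changes changed sign for 18 of the 45 tested members, 2 of them myeloid-made. Among the 25 members followed through the alternatives there were 8, with ranges of -0.0247 to 0.168 for *Adam15*, -0.053 to 0.121 for *Adam19*, -0.258 to 1.2 for *Mmp9*, -0.0839 to 0.493 for *Mmp25*, -0.281 to 0.118 for *Adamts1*, -0.0612 to 0.016 for *Adamts7*, -0.0311 to 0.195 for *Adamts14* and -0.0345 to 0.116 for *Adamts9*. Of the 25, *Mmp24* and *Mmp27* had no value under the filter of at least 1 CPM in 3 samples. *Adamts14* was also at -0.0378 with both mice left out. Of 388 values for 26 results, 366 kept their direction and side of the threshold, 14 reversed, 8 passed the threshold under DESeq2, among them *Slc16a7* at -1.05 and -1.04, and 0 lost it. The median of the myeloid-made class stayed between 0.593 and 0.79, and that of the stroma-made class between -0.101 and 0.0534, on both sides of 0. Moving *Mmp10*, *Mmp13*, *Adamts1* and *Adamts4* to the broadly made class gave medians of -0.0608 and 0.15 for the stroma-made and broadly made genes. No alternative moved genes into or out of the myeloid-made class.

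Same-numbered mice did not deviate together, with correlations of their deviations from the group means of 0.216, -0.247 and -0.161, so the numbers were not taken as pairs. With the replicate block 0 members were called, 6 had an unadjusted p under 0.05, and over all genes 1048 did against 1264 without it, and not every sample correlated best with its own number. Groups of 3 were not examined for outlying samples. Depth limits the members at a few counts, such as *Mmp27* and *Mmp24*.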

Other observations

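The ADAM genes best known from testis included 3, *Adam3*, *Adam5* and *Adam32*, that passed the filter on low counts. They lie one after another on the minus strand of chromosome 8, next to *Adam9*, which is on the same strand and starts at 25016927. *Adam32*, the nearest, had 0.23 CPM per kb of exon, *Adam5* 0.93 and *Adam3*, the farthest, 1.08, beside 90.1 for *Adam9*. Reads of introns and exons cannot be told apart in these counts, which appear to cover whole gene spans. None of the 3 differed between the groups at an unadjusted p under 0.05, with log2 fold changes of 0.20 (SE 0.30), 0.03 (SE 0.23) and 0.23 (SE 0.19) in that order.

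The median biological coefficient of variation of the tested members was 19.2%, and that of all genes tested was 12.5%. By class it was 11.2% in the broadly made genes, 20.1% in the myeloid-made and 19.6% in the stroma-made, and *Mmp9*, expressed as a fraction, had 0.511.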
